A study of Mus musculus with 2 samples.

Results

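The chemokine genes Ccl3, Ccl4, Ccl5 and Xcl1, which lymphocytes secrete, and the chemokine receptor genes Ccr1 and Xcr1 were followed across immune cell types in tumors of a lenvatinib-resistant mouse model of hepatocellular carcinoma (HCC). They are 6 of the 32285 genes counted, taken by name because they form ligand and receptor pairs, and all 6 had UMIs in both libraries. A unique molecular identifier (UMI) marks 1 captured RNA molecule, so that its PCR copies count once.

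Live CD45+ cells, the cells of the immune lineage, had been sorted from liver tumors and profiled by droplet-based 3′ single-cell RNA (scRNA) sequencing. In both groups HCC had been induced in male wild-type C57BL/6 J mice of 6 to 8 weeks by tail vein injection of plasmids for human MYC, a guide against Trp53 and the sleeping beauty transposase (Trp53KO/MYCOE), and lenvatinib at 30 mg/kg was started 12 days later and given for 25 days until tumors grew under the drug. The groups were then lenvatinib, a multikinase inhibitor given alone, and lenvatinib with palbociclib, an inhibitor of CDK4 and CDK6 (combo). Each group was 1 library, and the number of mice behind a library is not given in the sources used here. The host immune system was intact, and the tumors came from plasmids taken up by liver cells, not from a germline change.

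Cells of at most 6000 genes and at most 25% mitochondrial UMIs were kept, which left 14201 lenvatinib cells and 11613 combo cells, with medians of 5541 and 5754 UMIs. The libraries shared 49 cell barcodes. Since cells are not replicates and each condition is 1 library, no test compared the conditions, and a batch effect and a treatment effect cannot be told apart. Levels are UMIs of a gene per 1000000 UMIs of a group of cells (CPM), and every interval is an exact 95% interval (Poisson for a level, Clopper-Pearson for a share) that covers counting error only. A ratio is the combo level over the lenvatinib level.

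Cell types were set by gates of marker genes. T cells held Cd3e and were split into CD8 T cells (Cd8b1), CD4 T cells (Cd4) and other T cells (neither). NK cells held Ncr1 without Cd3e, B cells Cd79a, basophils Mcpt8, monocytes more Csf1r than Csf3r and neutrophils the reverse. Cells with a marker of another lineage were left out, except that basophils could hold Csf3r and the dendritic cell gates could hold Csf1r. Dendritic cells of the cross-presenting type (cDC1) were gated on Xcr1 itself and, for every statement on Xcr1, on Clec9a instead. The gates held 9363 lenvatinib and 8025 combo cells and left 34.1% and 30.9% of cells without a type. Of the markers kept aside to check the gates, all 4 of NK cells, 5 of neutrophils, 5 of cDC1, 4 of basophils and 5 of B cells were highest in their own gate in both libraries. In the monocyte gate 4 of 5 were, and Ly6c2 was highest in T cells. The T-cell gates were less clear, since of 4 check markers each 2 and 3 were highest in CD8 T cells, 3 and 2 in CD4 T cells and 1 in other T cells (lenvatinib and combo). Only 42.4% and 32.1% of the cells in the basophil gate had a UMI of Ms4a2, a basophil receptor subunit. The mature DC gate (Fscn1 and Ccr7) held 22 lenvatinib cells with all 4 check markers, but its 3 combo cells had Ccl22 and Cacnb3 at 0, so mature DCs were not compared between libraries.

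Chemokines are small secreted proteins that direct the movement of leukocytes by binding receptors with a serpentine fold on their surface. Ccl3, Ccl4 and Ccl5 (also known as MIP-1α, MIP-1β and RANTES) belong to the CC family, named for a pair of adjacent cysteines near the start of the mature protein, and are made by cytotoxic lymphocytes and by activated myeloid cells. Ccr1 binds Ccl3 and Ccl5 and is carried mainly by myeloid cells. Xcl1 (lymphotactin) has a single cysteine at that place, is made by NK cells and CD8 T cells, and is the ligand of Xcr1, the receptor that defines cDC1, which present tumor antigen to CD8 T cells. NK cells that make Ccl5 and Xcl1 are known to draw cDC1 into tumors.

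The CC genes lie close together on chromosome 11 of mm10. Ccl5 (ENSMUSG00000035042) spans 83525778 to 83530518, Ccl3 (ENSMUSG00000000982) spans 83647844 to 83649355, both on the minus strand, and Ccl4 (ENSMUSG00000018930) spans 83662584 to 83664683 on the plus strand, 13.2 kb from Ccl3. Xcl1 (ENSMUSG00000026573) lies on chromosome 1 from 164931644 to 164935527 on the minus strand, inside Gm20743, a noncoding gene of the other strand that had 178 and 69 UMIs over all barcodes of the lenvatinib and combo libraries. The receptor genes are neighbors on the minus strand of chromosome 9, Xcr1 (ENSMUSG00000060509) from 123852315 to 123862029 and Ccr1 (ENSMUSG00000025804) from 123962124 to 123968692. The coding sequences of Ccl3 and Ccl4 had 68.1% identical positions in a global alignment, against 61.6% for Ccl3 and Ccl5 and 45.5% for Ccl5 and Xcl1. The cysteine codons that part the families are shown in capitals below, in 60 coding bases of exon 2 of each ligand, 5′ to 3′ on the strand of the gene (GENCODE vM21 transcripts), because they are the feature by which the 3 CC ligands differ from Xcl1.
Ccl3, chr11:83648616-83648675: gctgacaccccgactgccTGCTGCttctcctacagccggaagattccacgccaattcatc
Ccl4, chr11:83663464-83663523: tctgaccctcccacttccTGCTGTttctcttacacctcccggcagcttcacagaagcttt
Ccl5, chr11:83529206-83529265: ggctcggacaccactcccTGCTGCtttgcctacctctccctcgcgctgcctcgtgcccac
Xcl1, chr1:164932936-164932995: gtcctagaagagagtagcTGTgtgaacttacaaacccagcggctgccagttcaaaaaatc

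The ligands had different main sources. Among gated cells, T and NK cells held 97.4% of the Ccl5 UMIs under lenvatinib and 95.9% under combo, and 98.6% and 96.5% of the Xcl1 UMIs. They held 82.6% and 67.7% of the Ccl4 UMIs, and 68.6% and 49.5% of the Ccl3 UMIs, so that under combo about as many Ccl3 UMIs lay in myeloid and B cells as in T and NK cells. CD8 T cells were the largest source of Ccl5 in both libraries, and NK cells of Xcl1 and Ccl4. For Ccl3 the gate with the most UMIs was NK under lenvatinib and neutrophil under combo. These shares follow the makeup of the sorted cells as well as the levels: NK cells made up 17.8% of lenvatinib cells and 8.52% of combo cells, and neutrophils 5.68% and 15.8%.

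**Figure D1:**
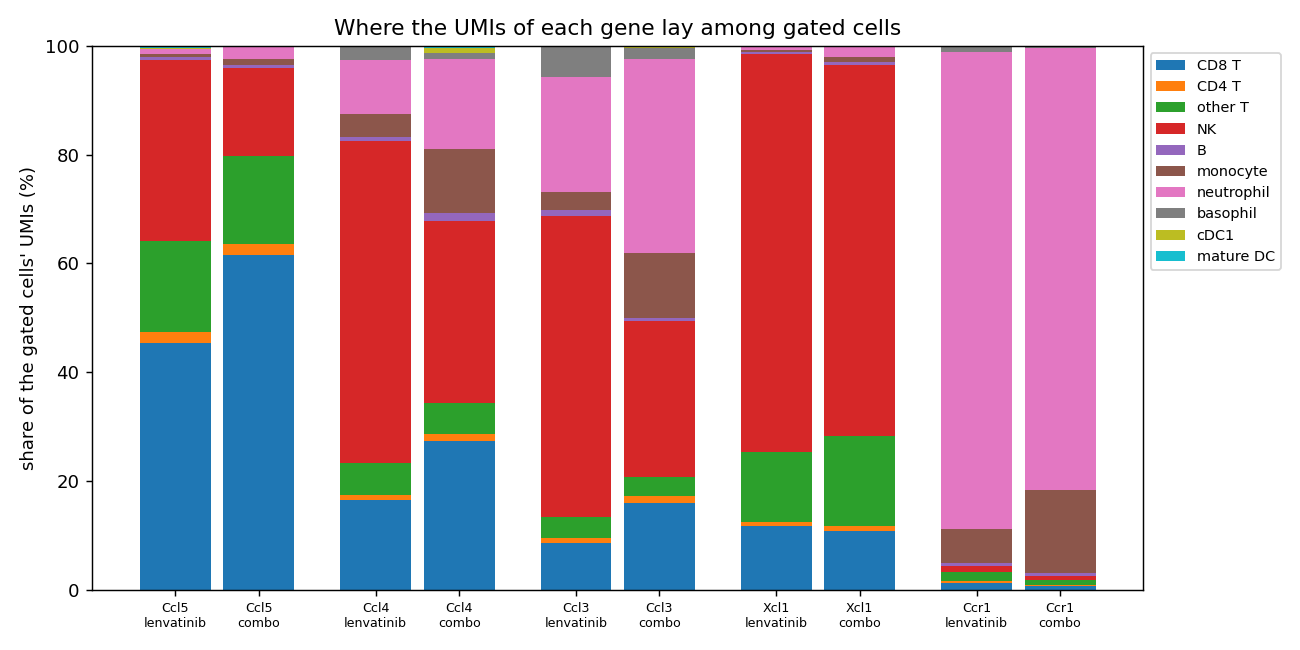
Stacked bars give the share of the gated cells' UMIs of each gene (y axis, percent) by gate (colors) for the lenvatinib and the combo library. T and NK cells hold nearly all of the Ccl5 and Xcl1 UMIs, neutrophils most of the Ccr1 UMIs, and the T and NK share of Ccl3 is 68.6% under lenvatinib and 49.5% under combo.

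Ccl5 was the most abundant ligand, and CD8 T cells had more of it under combo. Its level in CD8 T cells was 5247 CPM under lenvatinib and 9956 under combo, a ratio of 1.90 (1.88 to 1.91), and the median CD8 T cell held 28 and 59 UMIs. By CPM, 3 of the 4 members tested in CD8 T cells (Ccl3, Ccl4 and Ccl5) were at least 1.5 times higher under combo. Genes were tested if they had at least 20 UMIs in all and 10 CPM in 1 library. Of the 7612 tested genes, 2.72% were that much higher, and 11.4% were that much lower, beside 0 members. By UMIs per cell Ccl5 (1.58) and Ccl3 (1.52) still passed and Ccl4 (1.48) did not. The median gene was itself lower under combo in most gates, with a ratio of 0.894 in CD8 T, 0.833 in CD4 T, 0.876 in other T, 0.913 in NK, 0.876 in monocyte and 0.741 in B cells, and against that median Ccl5 in CD8 T cells stood at 2.12, Ccl3 at 2.04 and Ccl4 at 1.99. NK cells differed little, at 4283 and 4416 CPM (ratio 1.03, 1.02 to 1.04), with medians of 23 and 29 UMIs per cell. Other T cells had 3659.5 and 4360.2 CPM and CD4 T cells 1861 and 1781. In each library the order was CD8 T, NK, other T and CD4 T, with NK and other T closest together under combo. Under lenvatinib the 22 mature DCs had the highest level of any gate, 7136 CPM, with a median of 21 UMIs per cell.

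The higher Ccl5 level of CD8 T cells went along with another makeup of that gate. CD8 T cells with Pdcd1, which encodes PD-1, made up 13.2% (11.9% to 14.5%) of the gate under lenvatinib and 21.2% (19.4% to 23.0%) under combo, and those with Gzmk, an effector memory granzyme, and without Pdcd1 made up 22.6% and 35.5%. Both subsets had more Ccl5 than the gate as a whole, at 10514 and 13417 CPM with Pdcd1 (ratio 1.28) and 10455 and 14718 with Gzmk (1.41). CD8 T cells with neither gene had 2845 and 5479.7 CPM, a ratio of 1.93 (1.90 to 1.95), in a subset where 2.81% of genes were at least 1.5 times higher. By UMIs per cell the Ccl5 ratios were smaller, 1.06 with Pdcd1, 1.24 with Gzmk and 1.69 with neither gene. When the combo subsets were weighted as under lenvatinib, the CPM ratio of the gate was 1.44 for Ccl4 and 1.45 for Ccl3, both below 1.5, and 1.57 for Ccl5. This weighting was made on CPM alone, not on UMIs per cell. The cells with neither gene are themselves a mixture that this weighting does not resolve, so whether the Ccl5 ratio would pass 1.5 at an equal makeup is not known.

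**Figure D2:**
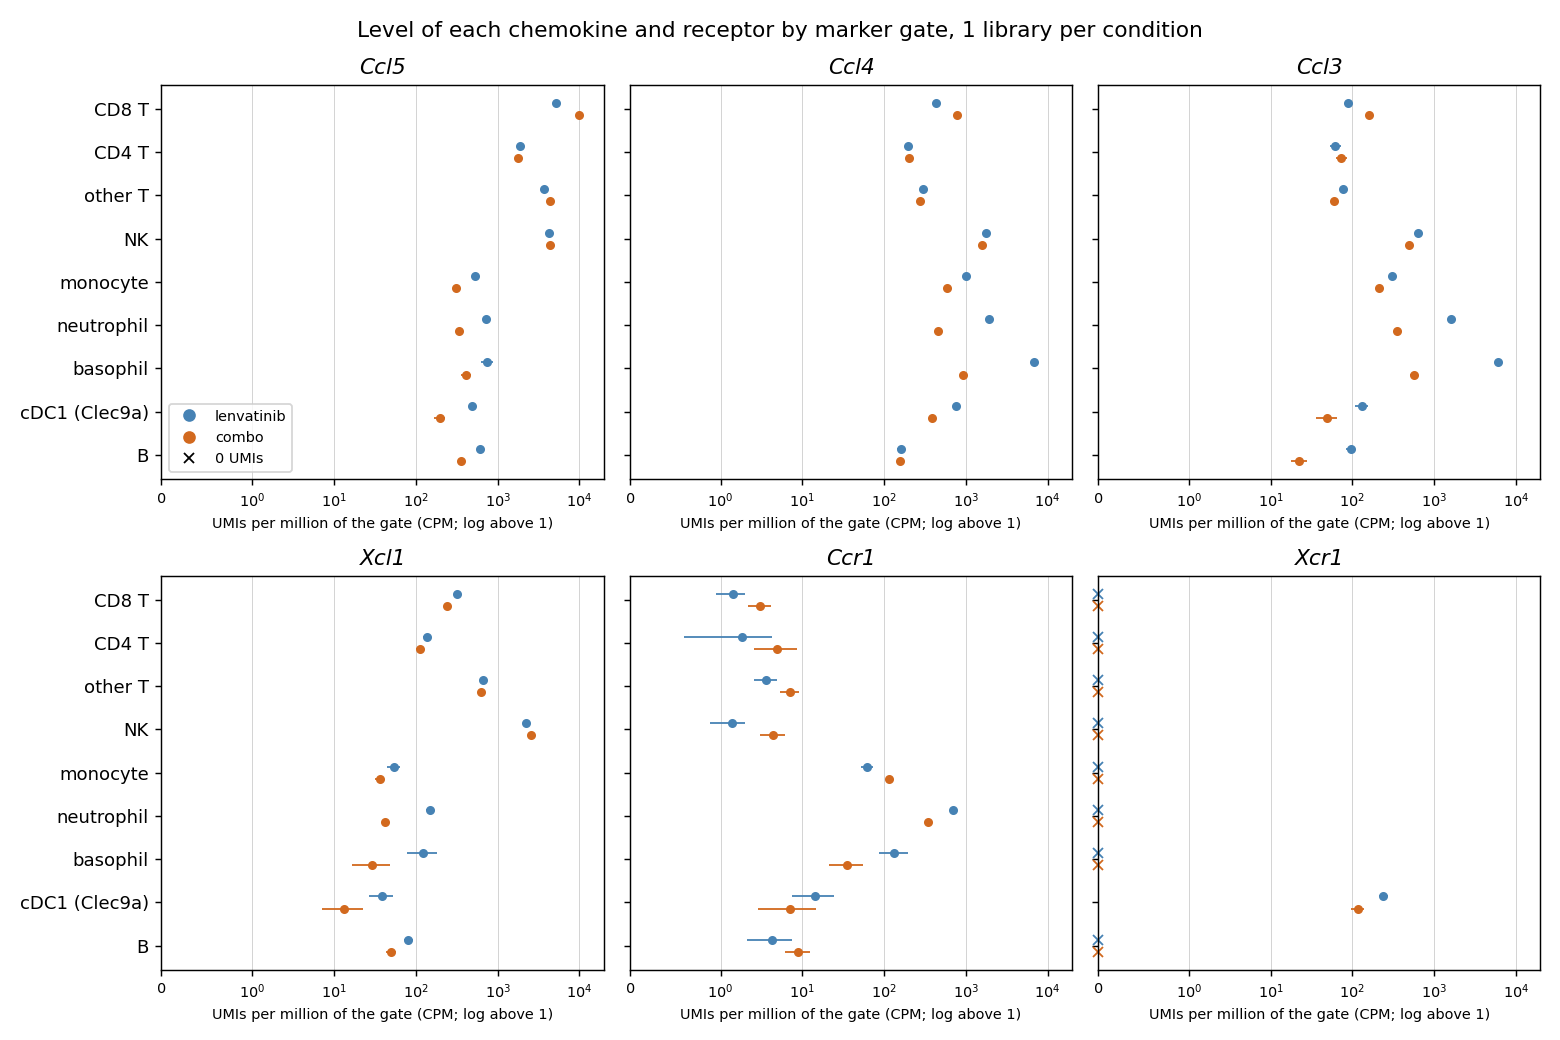
Each panel gives 1 gene, with its level in CPM (x axis, log above 1) by gate for the lenvatinib and combo library, and bars are exact Poisson 95% intervals. Ccl5 is highest in CD8 T cells under combo (9956 CPM) and Xcl1 in NK cells, Ccl3 and Ccl4 reach their highest levels in the basophil gate under lenvatinib, and Ccr1 is led by neutrophils. Xcr1 is at 0 in the other gates by their definition, and the cDC1 gate shown is the one set by Clec9a.

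Free RNA in the cell suspension gives every droplet a few UMIs of an abundant gene, so Ccl5 was examined in cells that should lack it. B cells had a median of 1 Ccl5 UMI per cell in both libraries and a mean of 2.95 under lenvatinib and 2.10 under combo. A single B cell with 483 UMIs held 29.9% of the lenvatinib sum, and cells of 10 or more UMIs held 50.1% of it and 38.7% of the combo sum. Neutrophils were alike, with a median of 1 in both libraries and means of 2.59 and 2.56, or 1.33 and 1.64 without cells of 10 or more. The low counts thus lay in most B cells and neutrophils and the high counts in few cells, 2.19% and 2.07% of B cells and 4.58% and 2.39% of neutrophils. At 10 or more UMIs stood 72.5% and 86.2% of CD8 T cells, 75.4% and 82.9% of NK cells, and 136 of 486 and 107 of 426 CD4 T cells.

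Equal depth gave the same picture of the background. After each cell was thinned to 2000 UMIs, a Ccl5 UMI was found in 52.2% (47.6% to 56.7%) of B cells under lenvatinib and 42.3% (38.3% to 46.4%) under combo. Before thinning these shares were 69.7% and 65.9%, at medians of 3218 and 3530.0 UMIs per B cell, against 97.8% and 98.3% of CD8 T cells at medians of 6877 and 5518. Monocytes had thinned shares of 50.6% and 41.0% and neutrophils 57.1% and 41.0%, so Ccl5 in these myeloid gates lay near the level of B cells, and no difference between the libraries is read from it. CD8 T cells (88.1% and 92.6%), NK cells (93.6% and 93.4%), other T cells (84.6% and 81.6%) and CD4 T cells (75.9% and 65.6%) lay above it, with intervals apart from those of B cells.

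A free pool of RNA keeps its genes in a fixed ratio in every cell type. The count of Ccl5 was therefore divided by that of each of 8 lymphocyte genes (Nkg7, Gzma, Trac, Cd3g, Trbc2, Ms4a4b, Cd8a and Klrd1) and set against the same ratio in the whole library. In neutrophils these relative ratios had a median of 1.33 and a highest value of 1.52 under lenvatinib, and ran from 0.943 to 1.78 under combo, with 7 and 5 of the 8 within 1.5 times the library ratio. In B cells they ran from 1.49 to 2.19 and from 0.503 to 1.75, with 1 and 5 of the 8 within. CD8 T cells, which make Ccl5, had 5 and 6 of the 8 within, from 0.520 to 7.60 and from 0.678 to 3.02, and monocytes 2 and 4, so this count does not part the gates that should lack Ccl5 from those that make it. In NK cells, which make Ccl5 but not the T-cell genes, they ran from 0.385 to 16.7 and from 0.236 to 24.7. The mature DCs under lenvatinib had Ccl5 at 22.8 to 49.6 times the library ratio for the 6 genes they had counts of, outside the range of neutrophils and B cells.

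**Figure D3:**
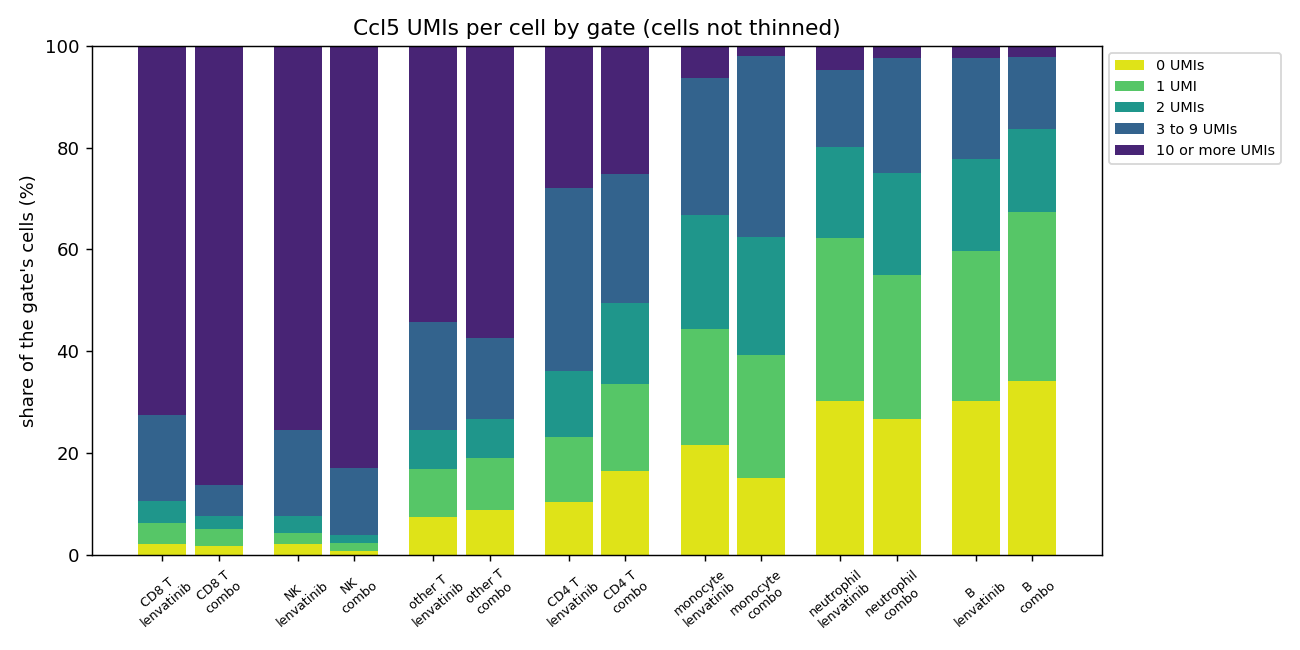
Stacked bars give the share of each gate's cells (y axis, percent, cells not thinned) with 0, 1, 2, 3 to 9 or at least 10 Ccl5 UMIs for the lenvatinib and combo library. Most CD8 T and NK cells have 10 or more UMIs (72.5% to 86.2%), whereas in neutrophils and B cells 0 and 1 UMI are the commonest counts.

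Ccl4 and Ccl3, which attract monocytes, NK cells and T cells, were shared by lymphocytes and myeloid cells. NK cells had Ccl4 at 1746 CPM under lenvatinib and 1592 under combo (ratio 0.912, 0.894 to 0.931) and Ccl3 at 627 and 489 (0.780, 0.752 to 0.809). CD8 T cells had less of both but more of both under combo, with Ccl4 at 437 and 776 CPM (1.78, 1.73 to 1.83) and Ccl3 at 88.5 and 161 (1.82, 1.71 to 1.94). By UMIs per cell these ratios were 1.48 and 1.52, and the median CD8 T cell had 1 Ccl4 UMI in both libraries. Cells of 10 or more UMIs held 55.4% and 69.6% of the CD8 T Ccl4 UMIs and 18.8% and 41.7% of the Ccl3 UMIs. Without such cells the means per cell were close, 1.71 and 1.84 for Ccl4 and 0.574 and 0.636 for Ccl3. After thinning, 39.1% and 47.2% of CD8 T cells had a Ccl4 UMI and 15.1% and 20.3% a Ccl3 UMI. No member in NK cells reached 1.5 times in either direction, a size that 3.42% of tested genes reached upward and 11.7% downward. As background, thinned B cells had a Ccl4 UMI in 17.5% and 10.8% of cells and a Ccl3 UMI in 6.57% and 3.38%. CD4 T cells were near these shares, at 15.4% and 11.0% for Ccl4 and 7.89% and 4.77% for Ccl3, whereas NK cells had 60.8% and 53.3% for Ccl4 and 40.3% and 33.8% for Ccl3.

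Among CD8 T subsets, Ccl4 had its largest ratio in cells with Pdcd1, at 584 CPM under lenvatinib and 1151 under combo (ratio 1.97, 1.86 to 2.09). It was the only member past 1.5 times there, in a subset where 5.09% of genes were that much higher. One combo cell with 420 UMIs held 13.2% of the sum, the median cell had 2 UMIs in both libraries, and the thinned shares of cells with a Ccl4 UMI, 53.0% and 53.8%, had overlapping intervals. Cells with Gzmk had 826 and 1122 CPM (1.36). Cells with neither gene had 304 and 399 CPM (1.31). Ccl3 had ratios of 1.26 in the Pdcd1 subset, 1.51 in the Gzmk subset (beside 3.19% of genes at least 1.5 times higher) and 1.53 in cells with neither gene. By UMIs per cell these Ccl3 ratios were 1.05, 1.33 and 1.35, none past 1.5 times.

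NK cells with Cxcr6, a receptor of tissue-resident NK cells, carried more Ccl3, Ccl4 and Xcl1 under lenvatinib than the NK cells with Ly49 receptor genes (Klra4, Klra8 or Klra9) and without Cxcr6. Ccl3 stood at 926 CPM in the first subset and 585 in the second under lenvatinib, and at 404 and 517 under combo. By UMIs per cell it was higher with Cxcr6 in both libraries (7.66 and 4.62, then 4.20 and 3.89), and the thinned shares under combo, 32.2% and 35.9%, had overlapping intervals, so no change in the order of the subsets is read from the CPM. Its ratio was 0.436 (0.398 to 0.478) in NK cells with Cxcr6, and 22.7% of genes tested there were at least 1.5 times lower under combo. Ccl4 in the same cells was 2564 and 1992 CPM, and Ccl5 was 4685 and 4540.2.

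**Figure D4:**
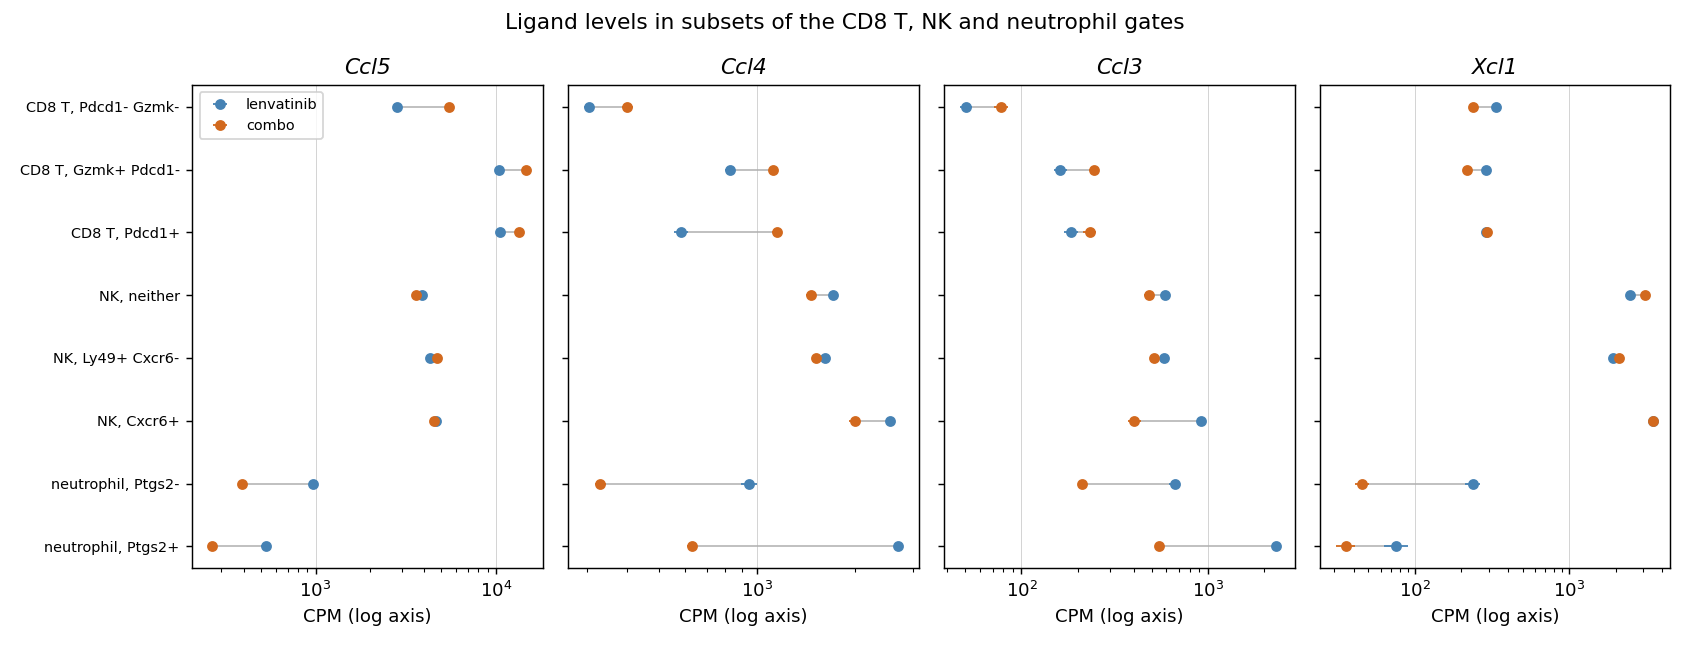
Each panel gives the level of 1 ligand (CPM, log axis) in subsets of the CD8 T, NK and neutrophil gates, with the lenvatinib and combo library joined by a line and exact Poisson 95% intervals as bars. Ccl5 is higher under combo in all 3 CD8 T subsets, Ccl3 is lower under combo in NK cells with Cxcr6 (926 and 404 CPM), and Ccl3 and Ccl4 are lower under combo in both neutrophil subsets.

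In neutrophils, Ccl3 and Ccl4 were several times lower under combo. Ccl3 was 1603 CPM under lenvatinib and 349 under combo (ratio 0.218, 0.209 to 0.227), and Ccl4 was 1939.6 and 454 (0.234, 0.226 to 0.243). By CPM all 5 members tested in neutrophils were at least 1.5 times lower, in a gate where 39.3% of genes were (and 4.09% were higher) and where the median gene had a ratio of 0.728. By UMIs per cell, however, Ccl5 (0.987) and Ccr1 (1.04) were not lower, and Ccl5 and Xcl1 lay near the level of B cells, so the count holds on both scales for Ccl3, Ccl4 and Xcl1 alone and is read as a difference for Ccl3 and Ccl4. Set against that median, the ratios were 0.299 for Ccl3, 0.321 for Ccl4, 0.389 for Xcl1, 0.646 for Ccl5 and 0.680 for Ccr1. Neutrophils were deeper under combo, with a median of 4994 UMIs against 2566, and per cell Ccl3 was 5.73 and 2.62 UMIs and Ccl4 6.94 and 3.41, so the direction was the same on both scales for these ligands. After thinning, 60.9% and 30.5% of neutrophils had a Ccl3 UMI and 50.4% and 23.6% a Ccl4 UMI, far above B cells in both libraries.

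The neutrophil gate itself differed between the libraries. Retnlg, a gene of neutrophils, was found in 40.4% of its cells under lenvatinib and 83.0% under combo, at 3878 and 10729 CPM, and S100a8, a subunit of calprotectin, had 52596 and 111861 CPM. Their part in the chemokine difference was not tested.

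By CPM the difference in Ccl3 and Ccl4 was present in both neutrophil subsets. Those with Ptgs2, an inducible gene of prostaglandin synthesis, had Ccl3 at 2331 and 548 CPM and Ccl4 at 2715 and 631, and made up 65.6% of neutrophils under lenvatinib and 49.9% under combo. Those without it had Ccl3 at 668 and 211 and Ccl4 at 944 and 330.1. By CPM, with Ptgs2 all 5 members were at least 1.5 times lower, beside 29.8% of genes, and without it 4 of 5, beside 51.4%. By UMIs per cell Ccl3 (0.473) and Ccl4 (0.468) passed with Ptgs2, but Ccl5 (1.01), Xcl1 (0.946) and Ccr1 (0.926) did not. Without Ptgs2, Ccl3 (0.614) and Xcl1 (0.373) passed, Ccl4 (0.680) and Ccl5 (0.784) did not, and Ccr1 was higher (1.61). Median depths without Ptgs2 were 2817 and 6575 UMIs. Genes of the immediate early response, which tissue dissociation can induce, moved with Ccl3 and Ccl4. Of these genes, 7 of 10 were at least 1.5 times lower in combo neutrophils and 0 were higher, beside 39.3% and 4.09% of all genes in the gate. The median ratio of the list was 0.461, against 0.728 for all tested genes. Egr1 led the list at 2141 and 382 CPM. In CD8 T cells the same list had 2 of 10 higher and 0 lower (median ratio 1.10), beside 2.72% and 11.4% of genes. In NK cells it had 2 higher and 1 lower (1.04), beside 3.42% and 11.7% of genes. Its part in the chemokine levels was not tested.

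Monocytes and basophils also had less Ccl4 under combo. Monocytes had 1009 CPM under lenvatinib and 586 under combo (ratio 0.581, 0.552 to 0.611) and Ccl3 at 307 and 211 (0.687, 0.629 to 0.752). Of the 5 members tested in monocytes, Ccl4 was at least 1.5 times lower and Ccr1 higher, beside 20.3% and 6.03% of genes. Ccl5 was past the same limit by CPM (0.577) but near the level of B cells, so it is not read as a difference, and by UMIs per cell neither Ccl4 (0.754) nor Ccl5 (0.749) passed. Monocytes with C1qa, a complement gene of macrophages, had the larger difference in Ccl4, at 1844 and 492 CPM, but they were 59 and 58 cells, with 26.8% of genes that much lower and 17.9% higher. They made up 19.5% of the gate under lenvatinib and 7.46% under combo, and the other monocytes had Ccl4 at 825 and 593 CPM, which did not reach 1.5 times. The immediate early list in monocytes had 4 of 10 genes lower and 0 higher. In the basophil gate Ccl3 was 6068 and 571 CPM (0.0941, 0.0825 to 0.107) and Ccl4 6873 and 920.1 (0.134, 0.120 to 0.149), from 33 and 28 cells with medians of 4983 and 20048 UMIs. By CPM all 5 members tested there were at least 1.5 times lower, beside 23.2% of genes (33.9% higher), and so were 7 of 9 immediate early genes. By UMIs per cell Ccl3 (0.290) and Ccl4 (0.412) were still lower, but Xcl1 (0.737) and Ccr1 (0.816) did not pass and Ccl5 was higher (4.42 and 7.54, 1.70), as it was by CPM with at least 2 UMIs of the gate marker (1.59). The cells gated also differed: Nkg7, a gene of cytotoxic lymphocytes, had 1.39 and 10.2 UMIs per cell, with 3.03% and 42.9% of cells at 10 or more, and Gata2, a basophil factor, had 892 and 247 CPM. Their part in the chemokine values was not tested. Single combo cells held 46.0% of the Ccl3 UMIs and 46.0% of the Ccl5 UMIs of the gate, without the top cell of each library the CPM ratios were 0.0587 and 0.427, and the median basophil had 1 and 2 Ccl3 UMIs.

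In B cells, 3 of the 4 members tested (Ccl3, Ccl5 and Xcl1) were at least 1.5 times lower under combo, as were 38.8% of genes there, while 3.37% were higher. One lenvatinib B cell held 51.6% of the Ccl3 UMIs, and without the top cell of each library the Ccl3 ratio was 0.384 in place of 0.231 and that of Ccl5 was 0.760. By UMIs per cell Ccl5 (0.710) and Xcl1 (0.757) did not pass, which left Ccl3 (0.283). No member reached 1.5 times in CD4 T cells, where 4.40% of genes were higher and 25.5% lower, or in other T cells, where 2.84% were higher and 15.0% lower. The makeup of the CD4 T gate also differed, with Foxp3, a marker of regulatory T cells, in 32.5% of its cells under lenvatinib and 5.40% under combo. Its part in the CD4 T levels was not tested.

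**Figure D5:**
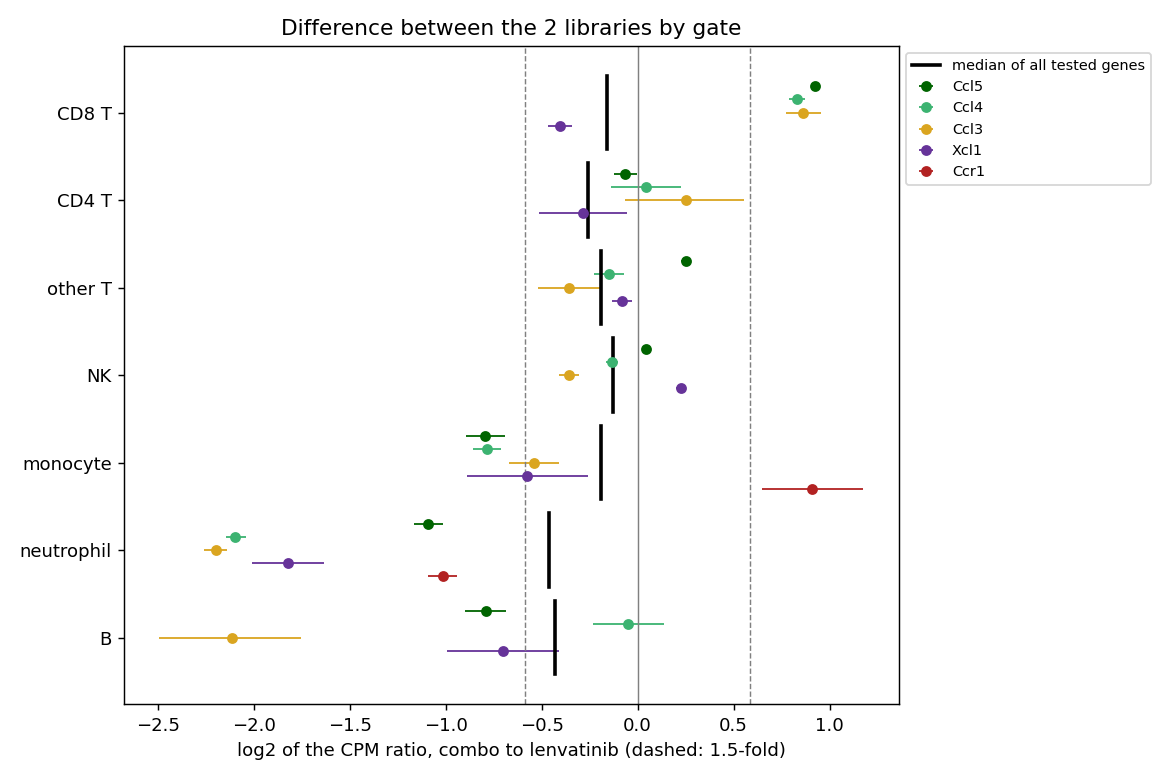
Points give the log2 ratio of CPM, combo to lenvatinib (x axis), of each ligand and of Ccr1 in 7 gates, with exact 95% intervals of counting error as bars, dashed lines at 1.5 times and a black mark at the median of all tested genes of the gate. On this scale Ccl3, Ccl4 and Ccl5 lie right of the upper line only in CD8 T cells. All 5 genes in neutrophils lie left of the lower line and of the gate's median. By UMIs per cell Ccl4 in CD8 T cells (1.48) and Ccl5 (0.987) and Ccr1 (1.04) in neutrophils do not differ by 1.5 times.

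Xcl1 was highest in NK cells. Its level there was 2221 CPM under lenvatinib and 2591 under combo (ratio 1.17, 1.15 to 1.19), with medians of 10 and 13 UMIs per cell. Other T cells followed at 664 and 628 CPM, CD8 T cells at 321 and 243 (0.756, 0.725 to 0.788) and CD4 T cells at 137 and 113. Other T cells with Trdc, the constant gene of the γδ T-cell receptor, had 577 and 743 CPM (1.29, 1.19 to 1.39), while those without it had 689.7 and 602. Over all cells, however, Xcl1 was 904 and 525 CPM (0.580, 0.574 to 0.587), a lower level beside a smaller share of NK cells. After thinning 85.8% and 87.5% of NK cells had an Xcl1 UMI, against a background of 12.5% and 6.43% in B cells. Monocytes, at 9.64% and 6.51%, and neutrophils, at 15.3% and 7.01%, were near that background.

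NK cells with Cxcr6 had the highest Xcl1 level, 3479 CPM under lenvatinib and 3481 under combo (ratio 0.966 to 1.04). NK cells with Ly49 genes had 1918 and 2093 (1.09), and those with neither had 2484 and 3092 (1.24, 1.21 to 1.29). Among CD8 T cells, those with neither Pdcd1 nor Gzmk had 336 CPM under lenvatinib and 237 under combo (0.705, 0.666 to 0.747), and the Pdcd1 subset had 291 and 292. One combo cell with 225 UMIs held 27.8% of the Xcl1 UMIs of the Pdcd1 subset, and per cell that subset had 2.25 and 1.88. After thinning 27.6% and 23.2% of its cells had an Xcl1 UMI, with overlapping intervals.

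A Ccl4 UMI was more frequent in cells with a Ccl3 UMI than in cells without one. In thinned NK cells, a Ccl4 UMI was found in 79.2% (76.5% to 81.8%) of cells with a Ccl3 UMI and 48.4% (45.8% to 51.1%) of cells without one under lenvatinib, and in 73.9% and 42.8% under combo. CD8 T cells had 67.6% and 34.0% under lenvatinib and 76.0% and 39.8% under combo, and neutrophils 63.4% and 30.2%, then 35.7% and 18.2%. The intervals of the cells with and without Ccl3 did not overlap in these 3 gates. For Xcl1 the shares in NK cells were 87.7% with Ccl3 and 84.6% without under lenvatinib, and 84.8% and 88.9% under combo, with overlapping intervals. Ifng, the interferon of cytotoxic lymphocytes, was found in 32.4% of CD8 T cells with Ccl4 and 21.2% without under lenvatinib, and in 42.6% and 26.0% under combo.

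Ccr1 was highest in neutrophils in both libraries. Neutrophils had 699 CPM under lenvatinib and 346 under combo, a ratio of 0.495 (0.470 to 0.522), but per cell they held 2.50 and 2.60 UMIs, a ratio of 1.04, so the direction depended on the scale. After thinning 68.1% (64.2% to 71.8%) and 53.0% (50.7% to 55.4%) of neutrophils had a Ccr1 UMI. Neutrophils with Ptgs2 had 989 and 455 CPM and those without had 327 and 271. Monocytes had 62.0 and 116 CPM (1.88, 1.57 to 2.26), or 1.37 as a mean of each cell's own CPM, with thinned shares of 9.64% and 18.1% (15.3% to 21.1%) and per cell 0.474 and 1.16 UMIs. Monocytes with C1qa had 40.8 and 149 CPM, from 17 and 81 UMIs. In the basophil gate Ccr1 had 133 and 35.3 CPM, from 26 and 18 UMIs.

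Lymphocytes had almost no Ccr1. Levels in CD8 T, CD4 T, other T, NK and B cells ran from 1.36 to 4.20 CPM under lenvatinib and from 3.06 to 8.93 under combo, and the thinned shares from 0.205% to 1.25% of cells. Over all cells Ccr1 was 33.7 and 88.1 CPM (ratio 2.61, 2.51 to 2.72), while monocytes made up 2.13% of lenvatinib and 6.69% of combo cells and neutrophils also had a larger share under combo. Neutrophils held 62.9% and 60.2% of all Ccr1 UMIs. Of neutrophils with a Ccl3 UMI after thinning, 74.9% (70.1% to 79.2%) also had Ccr1 under lenvatinib and 61.1% (56.8% to 65.3%) under combo, against 57.4% and 49.5% of those without Ccl3, so ligand and receptor were found in the same cells.

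Xcr1 was rare, with 416 UMIs in 112 lenvatinib cells and 296 UMIs in 89 combo cells. In the cDC1 gate set by Clec9a, 30 of 65 lenvatinib cells (46.2%, 33.7% to 59.0%) and 26 of 51 combo cells (51.0%, 36.6% to 65.2%) had an Xcr1 UMI, and the level was 239.7 and 117 CPM (ratio 0.487, 0.385 to 0.613). Per cell it was 3.38 and 2.24 UMIs, and after thinning 18 of 60 and 13 of 50 cells had a UMI, with overlapping intervals. By CPM all 6 members tested in this gate were at least 1.5 times lower under combo, as were 22.0% of genes. By UMIs per cell Ccl4 (0.700) and Ccr1 (0.686) did not pass. The CPM ratio of Ccr1 had an interval of 0.171 to 1.36, from 13 and 7 UMIs. Single cells held 37.5% and 33.3% of the Ccl3 UMIs and 40.9% and 34.0% of the Ccl4 UMIs. Thinned shares of Ccl5 and Xcl1 lay below those of B cells in both libraries, so neither is read as a difference. The Xcr1 levels in CPM thus lay apart while the shares of cells with Xcr1 overlapped. In the smaller gate set by Xcr1, where Xcr1 itself is left aside because it chose the cells, Ccl3 (1.74) and Ccl4 (3.04) were past 1.5 times higher and Ccl5 (0.542) and Xcl1 (0.463) lower, beside 11.9% and 12.6% of genes. A single combo cell held 68.9% of its Ccl3 UMIs and 1 held 66.9% of its Ccl4 UMIs, and without the top cell of each library the ratios were 0.763 for Ccl3, 1.37 for Ccl4 and 0.921 for Ccl5, none past 1.5 times.

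Cells with Xcr1 were set apart by other cDC1 genes, none of which chose them. Clec9a, a receptor for dead cells on cDC1, was found in 44.6% of lenvatinib and 55.1% of combo cells with Xcr1 and in 1.81% and 1.28% of the rest. Tlr3, a sensor of double-stranded RNA, was found in 39.3% and 53.9%, against 0.582% and 0.521%. Cd3e was found in 34.8% and 28.1% of the cells with Xcr1, however, and in 48.1% and 43.9% of the rest. When the gates were made without regard to Xcr1, a UMI was present in 30 of 5210 lenvatinib T cells (0.576%, 0.389% to 0.821%) and 18 of 3827 combo T cells (0.470%, 0.279% to 0.742%). NK cells had 12 of 2535 and 1 of 990, B cells 10 of 557 and 4 of 632, and monocytes 6 of 308 and 11 of 789. Every one of these gates was at 1.95% or below, far under the Clec9a gate.

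Among other genes of the same pathways, fixed as lists, the other chemokine ligands were best covered in monocytes. There 10 of 12 other ligands could be tested, of which 6 were at least 1.5 times higher and 3 lower under combo (median ratio 1.60, beside 6.03% and 20.3% of genes). Ccl9, a further ligand of Ccr1, had 222 and 373 CPM, and Ccl6, likewise a Ccr1 ligand, had 431 and 517. Ccl2, which recruits monocytes through Ccr2, had 101 and 222 CPM, whereas Cxcl16, the ligand of Cxcr6, had 124 and 25.9. In neutrophils Ccl6 had 606 and 499 CPM, a ratio of 0.823, above the median of that gate.

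Of the 10 other receptors, 0 of 6 tested passed 1.5 times in CD8 T cells in either direction, where 2.72% of all genes were higher and 11.4% lower. In neutrophils 5 of 7 were lower and 1 higher, where 39.3% and 4.09% of all genes were. Cxcr2, the neutrophil receptor for other chemokines, had 607 and 434 CPM in neutrophils. Of the 6 effector genes that lymphocytes secrete with chemokines, 5 were tested in CD8 T cells. There 1 passed upward and 0 downward, beside 2.72% and 11.4% of genes. It was Gzmb, the granzyme of cytotoxic granules, at 267 and 976 CPM. Ifng stood just under the limit there at 177 and 264 CPM (1.49), and in CD4 T cells it had 108 and 232. A single combo cell held 10.4% of the CD4 T Ifng UMIs, and the share of cells with Foxp3 in that gate differed between the libraries. In neutrophils all 4 of the list that could be tested were lower, beside 39.3% of genes, among them Tnf at 363 and 103 CPM. In NK cells 0 of 5 passed in either direction, where 3.42% of genes were higher and 11.7% lower.

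The genes most like each member were sought by the Pearson r of log2(CPM + 1) over 20 points, the 10 gates in both libraries, among 5948 genes. The gates share library and depth, so r is a description. The points include the 3 combo mature DCs, where 1 cell held 99.2% of the Ccl4 UMIs and where H2afj, named below for Ccl4, was highest. They also include the Xcr1-gated combo cDC1, where 1 cell held 66.9% of the Ccl4 UMIs. Xcl1 was most like NK receptor and cytotoxic genes, Klra9 (0.96), Klrc1 (0.95), Txk, Prf1 and Klre1. Ccr1 was most like Cd33 (0.98), Pi16, Gda, Hacd4 and Prdx5, and Ccl5 was most like Peak1 (0.93), H2-Q7, AW112010, Serpinb9 and Tcf7. Ccl3 was most like Arap3 (0.84), Lilr4b, Selenon, Csf1 and Lilrb4a, and Ccl4 was most like Ier2 (0.81), an immediate early gene, then Selenon, H2afj, Cd244a and Os9. Between members, r was 0.75 for Ccl5 and Xcl1, 0.73 for Ccl3 and Ccl4, and -0.04 for Ccl4 and Ccl5. No such list was made for Xcr1, since it sets a gate.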

How the data were processed

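CD45+ cells of 2 mouse libraries were measured by droplet 3′ scRNA sequencing (10x Chromium). The authors aligned reads to mm10 and counted UMIs per gene and barcode, and the deposited matrices hold these raw counts, not normalized. The submitters' notes name Cell Ranger 5.0.1 and the matrix headers 6.0.1. The deposited barcodes had at least 500 UMIs, 14509 in lenvatinib and 11989 in combo (98107503 and 93583402 UMIs), of which 308 and 376 were removed by the limits of 6000 genes and 25% mitochondrial UMIs. Calculations used Python 3.11.15, numpy 2.4.6, scipy 1.17.1 and scanpy 1.11.5. Cells were gated at 1 UMI of each marker with exclusion of other lineages, apart from Csf3r in basophils and Csf1r in dendritic cells. Counts were summed per gate and library, and CPM ratios were given with exact conditional intervals. Scrublet called 4.46% and 2.76% of cells doublets, which stayed in and were left out as an alternative. With 1 library a group there was no test, so genes were called by size, at 1.5 times with at least 20 UMIs in both libraries together and 10 CPM in 1. For shares at equal depth, 2000 UMIs were drawn from every cell, without the 2028 lenvatinib and 747 combo cells that had fewer. The script was tested on simulated data from CD8 T cells (7427 genes, 200 changed) and neutrophils (6877 genes, 200 changed). In both, 100.0% of the changed genes passed the limit in the right direction, and intervals covered the set ratio for 97.0% and 94.5% of them. The changes set were well beyond 1.5 times and the noise was counting error only. The test therefore does not bear on ratios near the limit, on single cells or on a batch.

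The members were given by name. Other genes named were those of lists of ligands, receptors, co-secreted effectors and immediate early genes, the gate markers, and the 5 genes most like each member. Members and lists were chosen with earlier results of these data known. Subset weighting, UMIs per cell and leaving out the top cell were chosen after seeing the data. A finer split of the CD8 T gate is not reported here.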

Additional observations from a re-analysis of the deposited data

Results flagged for a closer look

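By CPM, several members had ratios beyond 1.5 times in opposite directions in different gates, and no test of these differences was possible with 1 library a group. Ccl3 had a combo to lenvatinib ratio of 1.82 in CD8 T cells and 0.0941 in the basophil gate. Ccl4 had ratios of 3.04 in the cDC1 gate set by Xcr1 and 0.134 in the basophil gate, and without the cell of most UMIs in each library the cDC1 value was 1.37. Ccl5 had 1.90 in CD8 T cells and 0.470 in neutrophils by CPM, but neutrophils held 2.59 and 2.56 Ccl5 UMIs per cell (0.987), near the level of B cells, so no difference in neutrophils is read from it. Ccr1 had 1.88 in monocytes and 0.265 in the basophil gate, or 0.816 there by UMIs per cell.

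Barcodes removed by the cell filter also held UMIs of the members. Under lenvatinib they held 180 of Ccl3, 379 of Ccl4, 1551 of Ccl5, 464 of Xcl1, 39 of Ccr1 and 23 of Xcr1. Under combo they held 350 of Ccl3, 1230 of Ccl4, 1310 of Ccl5, 498 of Xcl1 and 60 of Ccr1.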

How the results depend on the processing

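The 45 pairs of member and gate kept their direction in 45 with no cell filter and in 45 with a stricter one, in 44 without called doublets, in 43 with mitochondrial, ribosomal and hemoglobin genes out of the total, in 44 by the mean of each cell's own CPM, in 41 by median of ratios, in 41 with no exclusion by other lineage markers, in 41 by UMIs per cell, in 42 without the cell of most UMIs and in 40 with at least 2 UMIs of each gate marker. Subtracting the UMIs of B cells left 37 pairs, 33 in the same direction. Pairs at least 1.5 times lower numbered 23, or 15 with no exclusion and 12 by UMIs per cell. Of shares of cells with a UMI, 15 pairs were that much lower after thinning and 3 without it. Among pairs past 1.5 times by CPM, directions turned with at least 2 UMIs of each marker for Ccl3 (0.889), Ccl4 (0.837) and Ccl5 (1.42) in Xcr1-gated cDC1 and for Ccl5 in the basophil gate (1.59). With no exclusion that of Ccl3 in Clec9a-gated cDC1 turned (1.04), and with B-cell UMIs subtracted that of Ccl5 in the basophil gate (1.20). By UMIs per cell those of Ccl5 in the basophil gate (1.70) and Ccr1 in neutrophils (1.04) turned, and without the top cell that of Ccl3 in Xcr1-gated cDC1 (0.763). The other pairs that turned had not passed 1.5 times. By UMIs per cell these included Ccl4 in B cells (1.19) and Xcl1 in other T cells (1.02). Ccl5 UMIs per cell in lenvatinib and combo B cells, then lenvatinib and combo neutrophils, were 13.8, 11.9, 12.6 and 12.8 with no exclusion and 1.54, 1.54, 1.66 and 1.84 with at least 2 marker UMIs. They were 3.17 in lenvatinib B cells and 2.73 and 2.63 in neutrophils under the stricter filter, and 1.95 in combo B cells and 2.39 and 2.48 in neutrophils without doublets. The causes were not tested. No paired analysis was possible because each group is 1 library, which also means that leaving out a replicate could not be done. The cDC1, basophil and Xcr1 values rest on few cells and limit what depth can show.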
